A study of Homo sapiens with 4 samples.

Results

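A set of 9 genes for histone variants that replace or stand beside the S phase histones was followed here, of 19778 named genes with values, read by 15 of 43893 probes: MACROH2A1, MACROH2A2, H2AZ1, H2AZ2, H2AX, H2AJ, H3-3A, H3-3B and CENPA. They were taken as every probe that the platform annotation maps to these 9 symbols. The arrays came from DU154 cells (the labels' spelling), a prostate cancer line, with 2 wild type arrays and 2 labelled mH2A1.2_KO, from cells in which mH2A1.2, a splice form of macroH2A1, was depleted. The labels name no other allele or agent in either group, and do not state how the depletion was made or whether the cells were 1 clone. Total RNA was read on Illumina bead arrays, all 4 on 1 chip, with biotin-labelled cRNA.

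Core histones of the replication-dependent kind are made in S phase to package new DNA. Replacement variants can take their place in nucleosomes at other times, are for the most part made from polyadenylated mRNAs, and mark particular chromatin. MacroH2A proteins carry a large macrodomain behind an H2A-like fold and are found in repressed chromatin such as the inactive X chromosome. H2A.Z lies beside active promoters, H2A.X is phosphorylated around DNA breaks, H3.3 is laid down in transcribed genes and at telomeres, and CENP-A marks the centromere.

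The 2 deposited tables disagree on 2 arrays, and this touches every result. By their values, wild type replicate 2 and mH2A1.2_KO replicate 1 of the normalized table carry each other's names in the header of the raw table (correlation of centred values 0.998 for each matched pair and at most 0.0151 for any other, over 7303 bright probes). The chip sections in the sample titles put the arrays in the order wild type 1, mH2A1.2_KO 1, wild type 2, mH2A1.2_KO 2, which is the order of the raw columns by their values and not by their header. Under the normalized table's names, the 2 wild type arrays correlated at 0.974 and the 2 mH2A1.2_KO arrays at 0.987 over the 16950 probes tested below. Arrays of different groups correlated at 0.972 to 0.986, so the wild type arrays were less alike than the closest pair across groups. Groups here follow the normalized table. Unless called raw, all array values below are log2 values of the normalized table after quantile normalization, and a difference is always mH2A1.2_KO minus wild type. Raw signals and detection p-values were matched to the arrays by their values and carry the normalized table's names.

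All 5 epithelial markers looked for (KRT8, KRT18, KRT19, EPCAM and CDH1) were above background on all 4 arrays. Their summed linear level was 5399 to 5420 in wild type and 10861 to 12114 in mH2A1.2_KO, and its part in the results below was not tested. By gene the log2 difference was 1.68 for KRT8, 1.24 for KRT19, 0.65 for CDH1, 0.50 for KRT18 and 0.43 for EPCAM. The arrays of KRT18 overlapped between the groups. The androgen-driven prostate secretory genes KLK3 and KLK2 were above background on 0 arrays, and TMPRSS2 on 1. Of the 4 endothelial markers all were at background on every array, and so were PTPRC, CD3E and LYZ of the 4 leukocyte markers with values, while CD14 was above background on all 4. Fibroblast markers reached detection on at most 2 arrays (COL1A1), and erythroid ones on at most 1 (HBA2). In RNA from whole cultures, fewer cells of a type and less RNA per cell cannot be told apart.

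Of the 15 probes, 14 were above background (detection p under 0.01) on all 4 arrays, so their detection does not depend on which table names the arrays. They cover all 9 genes. The exception was a MACROH2A1 probe, above background on 0 arrays. Expression was compared with limma's moderated test over 16950 detected probes, with Benjamini-Hochberg adjustment over all of them and a threshold of 0.05. None of the 14 histone variant probes passed, where 0% of all probes did (0 of 16950), and the lowest adjusted p of the whole table was 0.193. At an unadjusted p under 0.05 there were 6 of 14, 2 higher and 4 lower, where 7.56% of all probes reached it, 4.36% higher and 3.2% lower. With arrays named by the raw header, 0 of 14 did, while 2322 of all 16950 probes reached it and 0 passed the adjusted test. Both mH2A1.2_KO arrays lay outside the range of the wild type arrays for 8 of 14, 4 higher and 4 lower, where 35.7% of all probes did, 17.1% higher and 18.5% lower. A difference of at least 2-fold was measured for 2 of 14, both lower and both of MACROH2A1, where 0.773% of all probes reached it, 0.549% higher and 0.224% lower. Without the probes of MACROH2A1, 3 of 11 had an unadjusted p under 0.05 and 5 of 11 had arrays that did not overlap. The median difference of the 14 probes was 0.0035 and that of all probes was -0.010. The labels do not speak of separate cultures, and p-values here therefore measure only how far these arrays spread, which may be technical. In limma's fit that spread is taken partly from the probe and partly from all detected probes.

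The regions before the starts of MACROH2A1, MACROH2A2, H3-3B and H2AJ are shown because these 4 genes hold all the probes at an unadjusted p under 0.05, and they measured on both sides of 0. Each is the 250 bases before the outermost RefSeq gene start in GRCh38.p14, read 5′ to 3′ on the gene's strand, with CCAAT or its reverse complement ATTGG in capitals.
MACROH2A1 (chr5:135399888-135400137, minus strand): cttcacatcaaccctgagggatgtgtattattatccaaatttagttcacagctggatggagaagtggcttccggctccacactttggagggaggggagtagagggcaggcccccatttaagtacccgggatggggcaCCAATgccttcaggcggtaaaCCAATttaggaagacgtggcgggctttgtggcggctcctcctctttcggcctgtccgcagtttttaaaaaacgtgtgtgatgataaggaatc
MACROH2A2 (chr10:70052596-70052845, plus strand): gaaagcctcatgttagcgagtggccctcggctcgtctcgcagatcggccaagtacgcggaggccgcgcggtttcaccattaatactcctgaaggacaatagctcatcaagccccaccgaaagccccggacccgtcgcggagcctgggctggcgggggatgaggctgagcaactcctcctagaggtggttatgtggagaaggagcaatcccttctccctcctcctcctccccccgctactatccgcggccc
H3-3B (chr17:75779780-75780029, minus strand): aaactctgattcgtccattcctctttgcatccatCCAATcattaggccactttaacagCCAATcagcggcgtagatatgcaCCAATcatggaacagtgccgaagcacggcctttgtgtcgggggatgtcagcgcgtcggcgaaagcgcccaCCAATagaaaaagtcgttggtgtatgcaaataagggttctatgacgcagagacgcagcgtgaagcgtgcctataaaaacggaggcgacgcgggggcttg
H2AJ (chr12:14774155-14774404, plus strand): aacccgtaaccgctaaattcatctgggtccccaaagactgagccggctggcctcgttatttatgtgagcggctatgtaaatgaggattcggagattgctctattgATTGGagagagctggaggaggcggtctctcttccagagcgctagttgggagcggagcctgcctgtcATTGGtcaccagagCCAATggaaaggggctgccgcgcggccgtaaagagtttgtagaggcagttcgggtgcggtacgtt

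CCAAT, the box bound by the factor NF-Y, was found on either strand 2 times before MACROH2A1, 4 times before H3-3B and 3 times before H2AJ, and 0 times before MACROH2A2. Over all RefSeq starts of the 9 genes it was in 10 of 13 windows and in 8 of 9 genes, MACROH2A2 being the exception, while 32.01% of 35116 windows in the table hold it. The GC box GGGCGG was in 8 of 13 windows against 42.6% of all. TATAAA was in 3 of 13 windows, those of H2AZ1, H2AX and H3-3B, against 10.7%. TTTGAA, the letters of the cell cycle homology region, was in 2 of 13 windows, those of H2AX and CENPA, against 13.3%. Matches of different motifs may overlap, windows of 1 gene are not independent, and a match is a description of letters and not a bound site. Among the genes shown that hold CCAAT, H2AJ measured higher and H3-3B lower in mH2A1.2_KO, and the detected probes of MACROH2A1 differed in direction.

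MACROH2A1 (chr5:135334381-135399887, minus strand, GRCh38.p14) encodes the depleted variant and was read by 4 probes that differed in direction. Its brightest probe, ILMN_2373495, measured 13.02 and 12.91 for the wild type and 11.97 and 11.83 for the mH2A1.2_KO arrays. Both mH2A1.2_KO arrays were far below both wild type arrays: the groups stood 0.94 to 1.19 apart for any pair of arrays, where arrays of 1 group differed by 0.11 and 0.14. The mean difference was -1.07 ± 0.16 (SE of limma's moderated fit, 2 arrays per group), leaving 47.8% of the wild type level. Here and below, the error after ± draws on the spread of all detected probes as well as on the probe's own. On the raw scale the same probe gave 8022 and 7874 units of intensity in the wild type, against 3955 and 3960 after depletion of mH2A1.2. These raw values carry the normalized table's names. By the raw table's own header, the 7874 belongs to mH2A1.2_KO replicate 1 and the 3955 to wild type replicate 2.

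Another probe, ILMN_1746171, measured 10.25 and 10.46 on the wild type arrays, then 9.41 and 9.26 on both mH2A1.2_KO arrays. Again the groups did not overlap, and the difference was -1.02 ± 0.17, or 49.4% of wild type. The third probe, ILMN_1674034, measured 8.86 and 8.41 for the wild type and 9.49 and 9.03 for the mH2A1.2_KO arrays. Here both mH2A1.2_KO arrays were above both wild type arrays, but the nearest pair was only 0.17 apart and the spread within each group was 0.45 and 0.46 around a difference of 0.62 ± 0.24. The last probe, ILMN_2275437, measured between 5.96 and 6.32 with detection p from 0.569 to 0.855, below background throughout, so it gives no fold.

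By unadjusted p the first 2 probes ranked 32 and 49 of 16950, and their absolute differences were at least as large as those of 99.4% and 99.3% of all detected probes. Neither passed over the whole table in limma's fit (adjusted p 0.246 and 0.271), nor did the third (0.626). Without wild type replicate 2 the difference of the brightest probe was -1.12. When any 1 array was left out, its difference ran from -1.14 to -0.99 and that of the second from -1.12 to -0.91, while the third ran from 0.39 to 0.85. With groups named by the header of the raw table, the 3 differences were -0.12, 0.027 and -0.45.

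The MACROH2A1 probes were also set against each other within each array. The brightest minus the second probe was 2.77 and 2.46 on the wild type arrays, then 2.56 and 2.57 on both mH2A1.2_KO arrays, and the groups overlapped. The brightest minus the third was 4.16 and 4.50 for the wild type and 2.48 and 2.80 for the mH2A1.2_KO arrays, with no overlap. The difference in that offset was -1.69, with an SD between arrays of 0.24 in wild type and 0.22 in mH2A1.2_KO. An exact two-sided permutation test over the 6 splits gave p = 0.333, the smallest value that 2 arrays against 2 allow. ILMN_1746171 and ILMN_1674034, which differed in direction, are annotated to 1 transcript and the other pair to another. Whether a probe reads only its annotated splice form was not tested, so no probe can be taken here as a measure of mH2A1.2 alone.

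MACROH2A2 (chr10:70052846-70112282), the gene of the other macroH2A protein, also measured lower in mH2A1.2_KO. Its probe gave 10.90 and 10.82 on the wild type arrays, then 10.16 and 10.40 on both mH2A1.2_KO arrays. Both mH2A1.2_KO arrays were below both wild type arrays, by 0.42 to 0.74 for any pair. The difference was -0.58 ± 0.17 (95% interval -0.99 to -0.17, unadjusted for the number of probes), or 66.8% of wild type, with an adjusted p of 0.487 in limma's fit. With arrays named by the raw header it turned to 0.083. The difference of the brightest MACROH2A1 probe minus that of MACROH2A2 was -0.48, and over single array pairs it lay between -0.69 and -0.28 (exact permutation p = 0.333, the smallest possible). It is 1 of 3 pairs of related genes compared in this way.

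**Figure D1:**
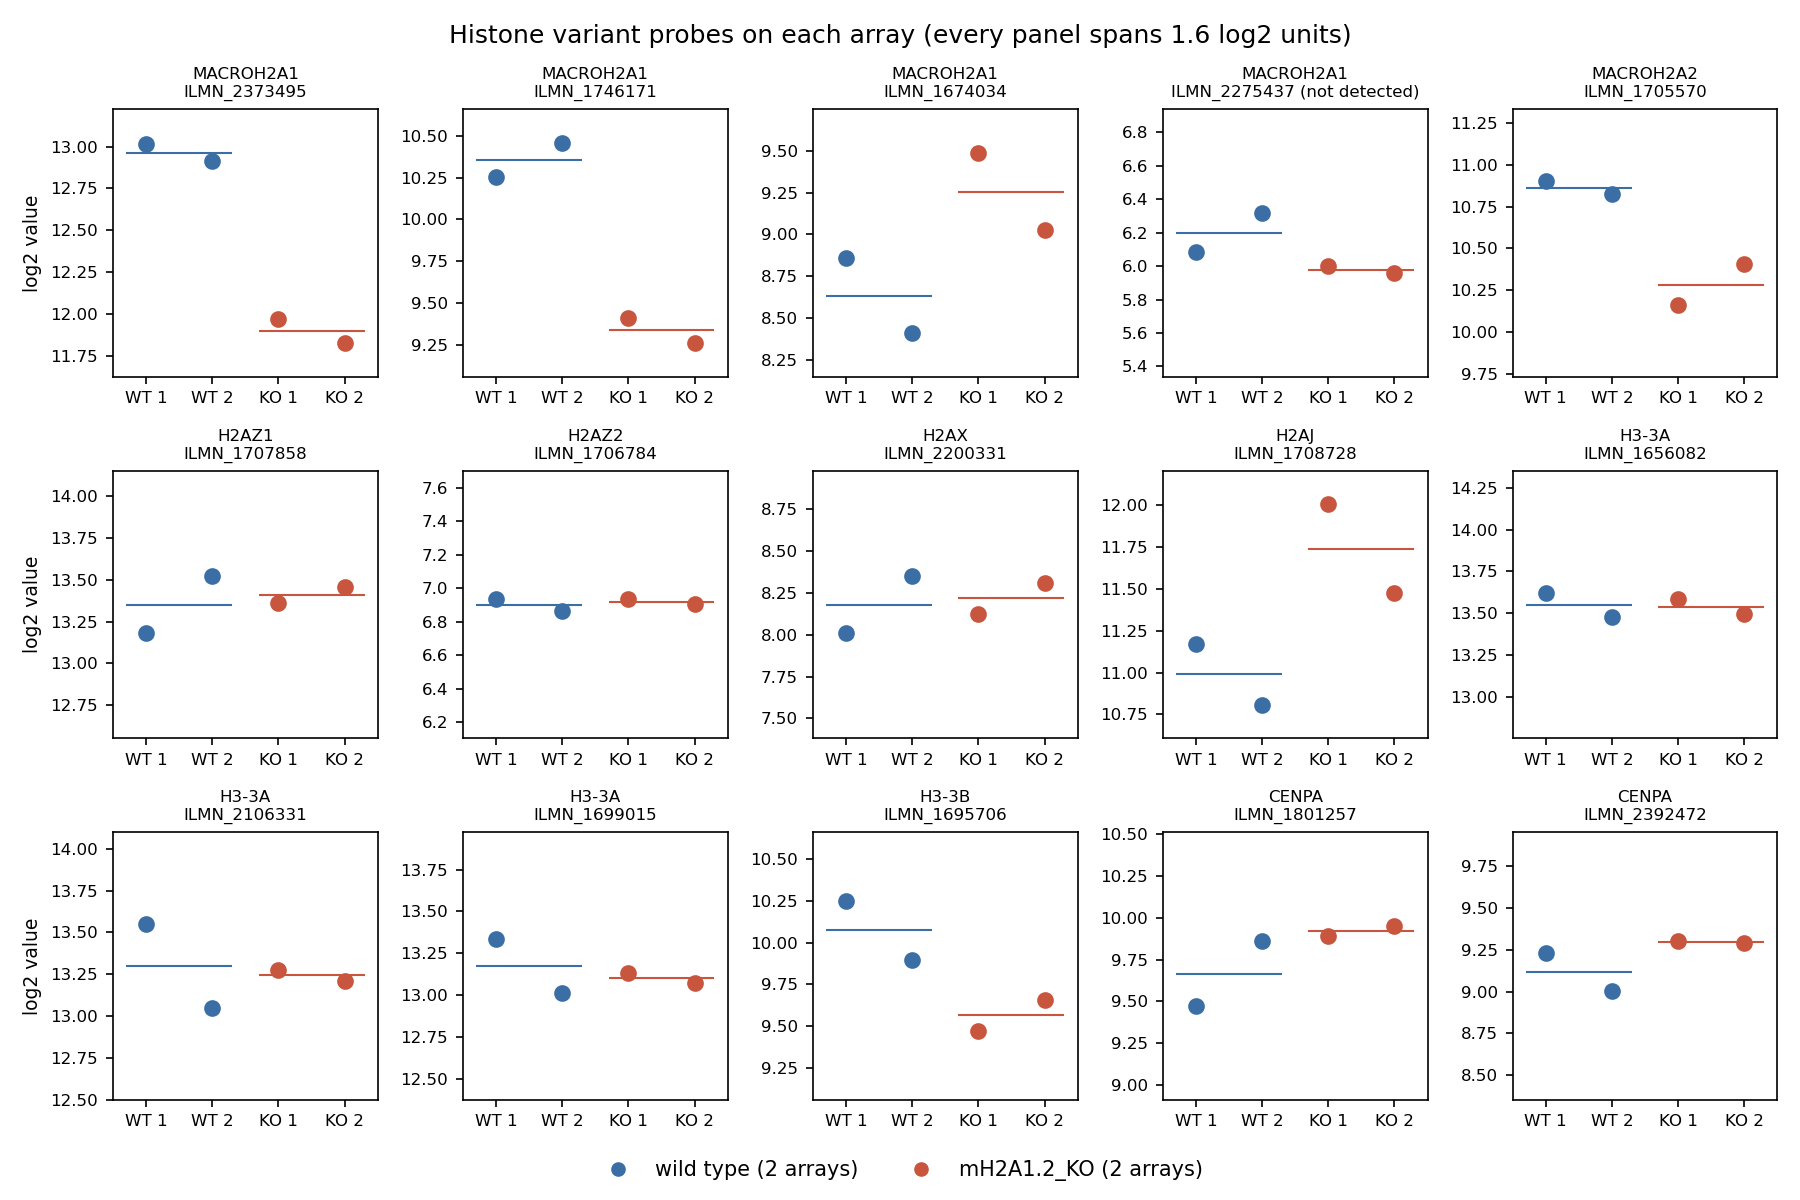
Log2 values of all 15 probes of the 9 genes on each array, wild type (WT, blue) and mH2A1.2_KO (KO, red), with a line at each group's mean and panels of equal height. The differences of the first 2 MACROH2A1 probes are -1.07 and -1.02, of MACROH2A2 -0.58 and of H3-3B -0.51, H2AJ and the third MACROH2A1 probe lie higher by 0.75 and 0.62, and the arrays of the H2A.Z, H2AX and H3-3A probes overlap.

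Among the other H2A variants only H2AJ had arrays that did not overlap between groups. H2AJ (chr12:14774405-14778002) encodes H2A.J, a variant that differs from canonical H2A mainly at its C-terminus and is known to accumulate in senescent fibroblasts. It measured 11.17 and 10.81 for the wild type and 12.01 and 11.48 for the mH2A1.2_KO arrays. Both mH2A1.2_KO arrays were higher, by 0.31 at the nearest pair, and the spread within the groups was 0.37 and 0.53. The difference was 0.75 ± 0.24 (95% interval 0.18 to 1.33), or 1.68-fold, the largest absolute difference among the 11 probes outside MACROH2A1. It did not pass (limma adjusted p = 0.516) and ran from 0.49 to 1.02 when 1 array was left out. On the arrays whose names are the same in both tables (replicate 1 of wild type, replicate 2 of mH2A1.2_KO) the difference was 0.31, and with groups named by the raw header -0.45.

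H2AZ1 (chr4:99948088-99950275) and H2AZ2 (chr7:44826889-44848126) encode H2A.Z.1 and H2A.Z.2, which differ at a few residues. H2AZ1 measured 13.18 and 13.52 on the wild type arrays, then 13.36 and 13.46 on both mH2A1.2_KO arrays, so the mH2A1.2_KO arrays lay between the wild type ones. Its difference was 0.058 ± 0.18 (95% interval -0.38 to 0.50). H2AZ2 measured 6.94 and 6.87 against 6.94 and 6.90, a difference of 0.019 ± 0.15 (95% interval -0.35 to 0.39). Its probe was dim, with raw signals of 169 to 186 where the median probe of an array gave 139.8 to 142.4. Both intervals hold 0, and a true difference of any size inside them remains possible with these arrays. The RefSeq table names 7 pseudogenes of H2AZ1, and whether the probe also reads such copies was not tested.

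H2AX (chr11:119093874-119095465), whose protein is phosphorylated by ATM at DNA breaks, measured 8.01 and 8.35 for the wild type and 8.13 and 8.31 for the mH2A1.2_KO arrays. The mH2A1.2_KO arrays again fell inside the wild type range. The difference was 0.037 ± 0.19 (95% interval -0.42 to 0.49, limma adjusted p = 0.995).

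The H3.3 protein is encoded by H3-3A and H3-3B, which make the same amino acid sequence from different mRNAs. H3-3A (chr1:226061831-226072019) was read by 3 probes. ILMN_1656082 measured 13.62 and 13.48 on the wild type arrays, then 13.58 and 13.50 on both mH2A1.2_KO arrays, a difference of -0.012 ± 0.16. The other probes differed by -0.055 ± 0.21 (ILMN_2106331) and -0.072 ± 0.18 (ILMN_1699015). In all 3 the mH2A1.2_KO arrays lay between the wild type ones. The widest of their 95% intervals ran from -0.56 to 0.45. RefSeq names 7 pseudogenes of H3-3A and 2 of H3-3B, and whether the probes of these genes read such copies was not tested.

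H3-3B (chr17:75776434-75779779) measured 10.25 and 9.90 for the wild type and 9.47 and 9.66 for the mH2A1.2_KO arrays. Both mH2A1.2_KO arrays were lower, although the nearest pair was 0.24 apart and the wild type arrays differed by 0.35. The difference was -0.51 ± 0.19 (95% interval -0.97 to -0.051), or 70.3% of wild type, and did not pass (limma adjusted p = 0.611). It was -0.081 with arrays named by the raw header and -0.33 when wild type replicate 1 was left out. The difference of the brightest H3-3A probe minus that of H3-3B was 0.50, from 0.26 to 0.74 over single array pairs (exact permutation p = 0.333). For H2AZ1 minus H2AZ2 the same measure was 0.039, from -0.23 to 0.31 (exact permutation p = 1). H3-5, a testis H3 variant gene that arose as a copy of H3-3B, measured 10.54 and 10.63 on the wild type arrays, then 10.21 and 10.42 on both mH2A1.2_KO arrays, -0.27 ± 0.17. Whether its probe reads H3-3B mRNA was not tested.

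CENPA (chr2:26786056-26794589) encodes the centromeric H3 variant, which is made late in the cell cycle. ILMN_1801257 measured 9.47 and 9.86 for the wild type and 9.89 and 9.95 for the mH2A1.2_KO arrays, and ILMN_2392472 measured 9.23 and 9.004 against 9.30 and 9.29. Both probes had both mH2A1.2_KO arrays above both wild type arrays, but by as little as 0.033 and 0.061. The wild type arrays were themselves 0.39 and 0.23 apart, and in opposite order for the 2 probes. The differences of 0.25 ± 0.19 and 0.18 ± 0.17 were close to their errors and did not pass (limma adjusted p 0.893 and 0.933). Leaving out 1 array gave 0.060 to 0.45 for ILMN_1801257 and 0.065 to 0.29 for ILMN_2392472, lowest without wild type replicate 2 for ILMN_2392472 and without wild type replicate 1 for ILMN_1801257. With arrays named by the raw header, ILMN_2392472 turned to -0.12.

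**Figure D2:**
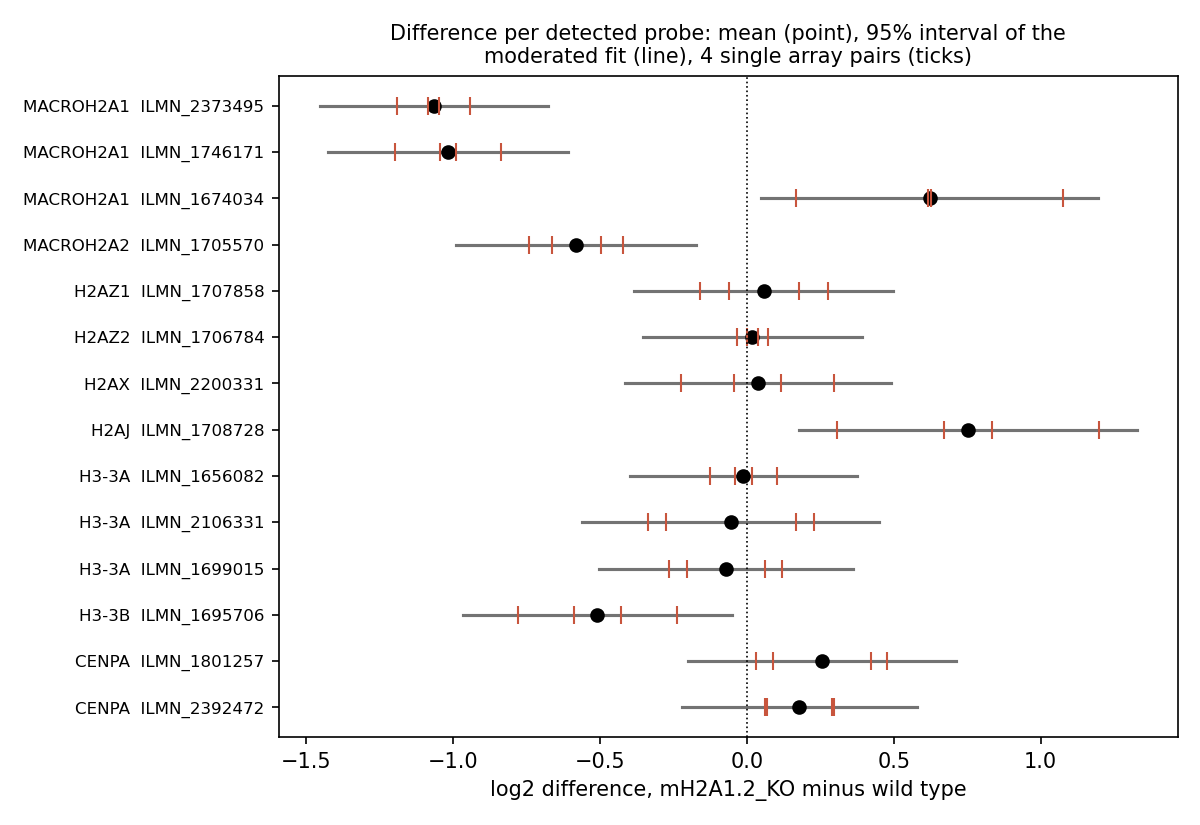
Log2 difference of each of the 14 detected probes, mH2A1.2_KO minus wild type: the point is the mean over 2 arrays per group, the line its 95% interval from the moderated fit (not adjusted for the number of probes) and the ticks the 4 single array pairs. The intervals of 6 probes leave out 0, those of MACROH2A1 (3 probes), MACROH2A2, H2AJ and H3-3B.

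Genes whose products load, remove or bind these variants were taken from 8 lists, 1 probe per gene. No gene of any list passed over all probes in limma's fit, where 0% of all probes did, in either direction. Over all 10673 named genes the median difference was -0.0095, with 5152 higher and 5521 lower. With arrays named by the raw header, 7 of the 8 list medians were above 0, up to 0.43 for the cell cycle genes and 0.27 for CENP-A loading.

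Partners of macroH2A measured higher for 5 and lower for 4 of 9 tested genes, with a median of 0.061, or -0.047 without mH2A1.2_KO replicate 2. SPOP, the substrate adaptor of the CUL3 ubiquitin ligase that modifies macroH2A1, measured 9.97 and 10.03 on the wild type arrays, then 10.23 and 10.64 on both mH2A1.2_KO arrays, 0.44 ± 0.19. The lamin LMNB1 measured 0.37 ± 0.20, the deacetylase HDAC1 -0.32 ± 0.19 and the splicing factor RBFOX2 0.24 ± 0.23. PARP1, a poly(ADP-ribose) polymerase that macroH2A1 is known to bind, measured 12.02 and 11.98 against 12.02 and 12.13.

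For H2A.Z exchange, 5 genes of 14 were higher and 9 lower, with a median of -0.060. YEATS4, the GAS41 subunit of the SRCAP and TIP60 complexes that insert H2A.Z, measured 8.14 and 8.55 for the wild type and 8.91 and 9.27 for the mH2A1.2_KO arrays, 0.75 ± 0.22 (adjusted p = 0.487). EP400, an ATPase of the TIP60 complex, measured 9.61 and 9.28 against 8.94 and 8.997, -0.48 ± 0.18. The shared ATPase RUVBL1 measured -0.40 ± 0.17 and the subunit DMAP1 0.35 ± 0.17. Subunits of these complexes were thus measured on both sides of 0, and SRCAP itself at -0.013 ± 0.16.

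Genes that act with H2A.X at breaks had 2 of 7 higher and a median of -0.10. TP53BP1, a reader of break-site chromatin, differed by 0.22 ± 0.17, MRE11 by -0.19 ± 0.18, the kinase ATM by -0.17 ± 0.23 and MDC1, which binds phosphorylated H2A.X, by -0.13 ± 0.16. H3.3 chaperones had 3 of 8 higher and a median of -0.027, which was 0.071 when wild type replicate 2 was left out. UBN1, a subunit of the HIRA complex, measured 9.70 and 9.83 on the wild type arrays, then 9.39 and 9.43 on both mH2A1.2_KO arrays, -0.36 ± 0.16, its relative UBN2 -0.30 ± 0.25, DEK 0.17 ± 0.17 and HIRA -0.14 ± 0.16.

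For CENP-A loading, 5 of 8 genes were higher and the median was 0.088. The histone-binding protein RBBP4 differed by -0.40 ± 0.26 on its brightest probe, but its 3 detected probes ran from -0.40 to 0.28 and disagree in direction. Its relative RBBP7 differed by 0.15 ± 0.16, HJURP, the CENP-A chaperone, by 0.21 ± 0.28 and MIS18A by -0.14 ± 0.18. This median was -0.087 without wild type replicate 1 and -0.099 without mH2A1.2_KO replicate 2, so its direction rested on those arrays. Genes of replication-coupled assembly had 1 of 9 higher with a median of -0.12 that moved to 0.0064 when wild type replicate 2 was left out. RBBP4 belongs to this list too, and the chaperones ASF1B (0.24 ± 0.16) and NAP1L1 (-0.24 ± 0.16) and the histone gene activator NPAT (-0.24 ± 0.17) had the next largest differences.

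Of the 12 other replacement and linker variants listed, 8 had a probe in the table and 2 were above background, H3-5 and the linker histone H1-10 (-0.19 ± 0.29). Cell cycle genes are given beside CENPA and H2AX because both are made in step with the cycle: 7 of 14 were higher and the median was 0.020. RRM2 (-1.05 ± 0.35), CCNB1 (0.69 ± 0.33), MCM10 (-0.67 ± 0.23) and KIF20A (0.54 ± 0.20) differed most. RRM2 measured 8.43 and 9.47 on the wild type arrays, which were thus far apart, against 7.69 and 8.12 on the mH2A1.2_KO arrays. The arrays of CCNB1 overlapped between the groups, and the other detected probe of MCM10 measured -0.33. The median of all 14 was -0.17 without wild type replicate 1 and 0.24 without wild type replicate 2. The part of the cell cycle in the histone variant values was not tested.

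**Figure D3:**
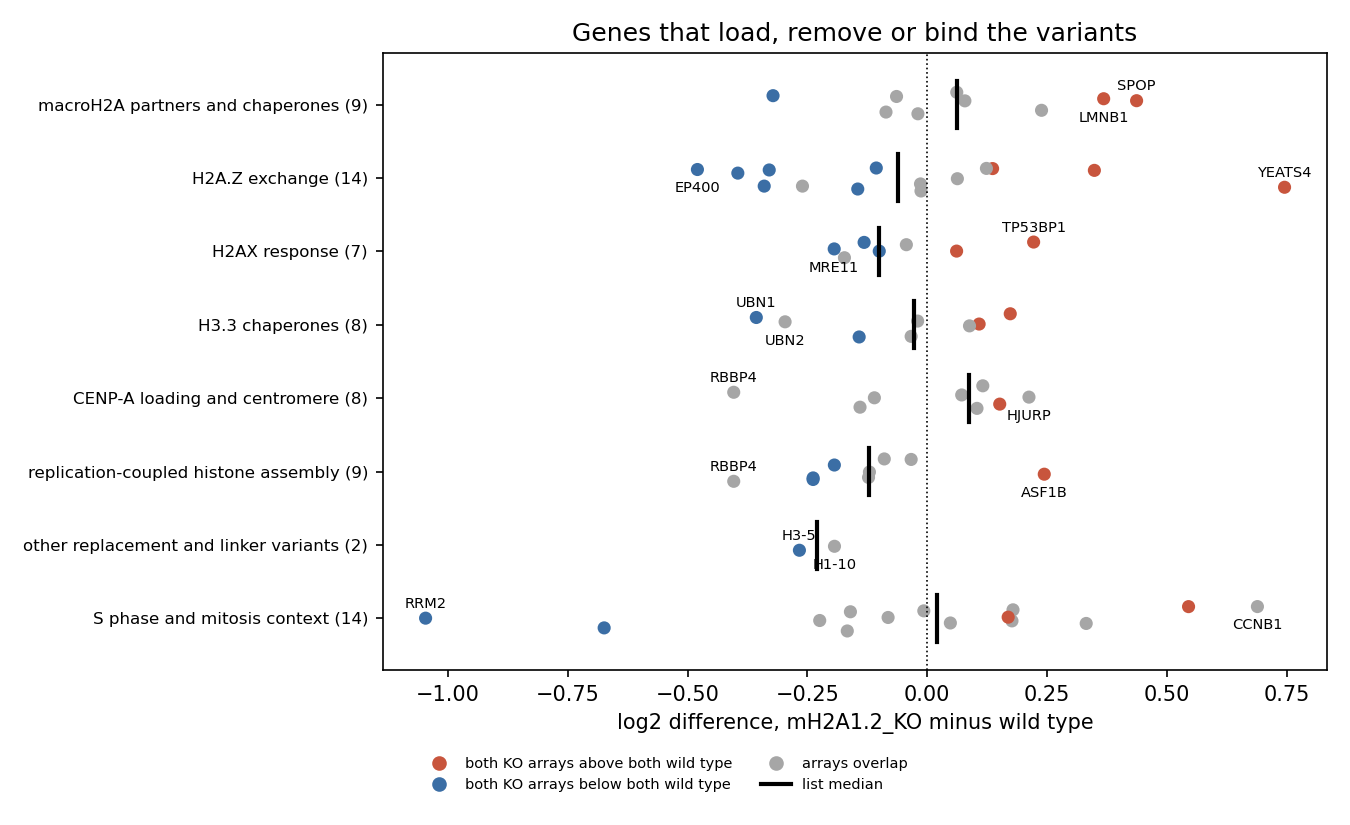
Log2 difference (mH2A1.2_KO minus wild type) of each tested gene in the 8 lists, with the number of genes in brackets, 1 detected probe per gene; colours show whether the 2 arrays of each group overlap and black bars are list medians. Medians lie between -0.23 and 0.088, and YEATS4 at 0.75 and RRM2 at -1.05 differ most within their lists.

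The named genes whose profile over the 4 arrays was most like that of the brightest MACROH2A1 probe were found by Euclidean distance between centred log2 values. They were SPP1 (distance 0.063), ETV4 (0.074), CCN2 (0.14), TMEM158 (0.15) and FOXN2 (0.16). ETV4, a transcription factor of the ETS family, measured 8.51 and 8.47 for the wild type and 7.51 and 7.29 for the mH2A1.2_KO arrays, with -1.08 and -0.99 for its 2 probes. CCN2, a matricellular growth factor, differed by -1.02 and -1.03 on its 2 probes, and the single probes of TMEM158 and of FOXN2, a forkhead factor, by -1.12 and -0.92. SPP1, the bone matrix protein osteopontin, was above background on both wild type arrays and on 0 of the mH2A1.2_KO arrays, so the distance for it is set partly by background. With 4 arrays, likeness mostly means a similar size of group difference, and none of these 5 genes passed (limma adjusted p from 0.213 to 0.273).

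**Figure D4:**
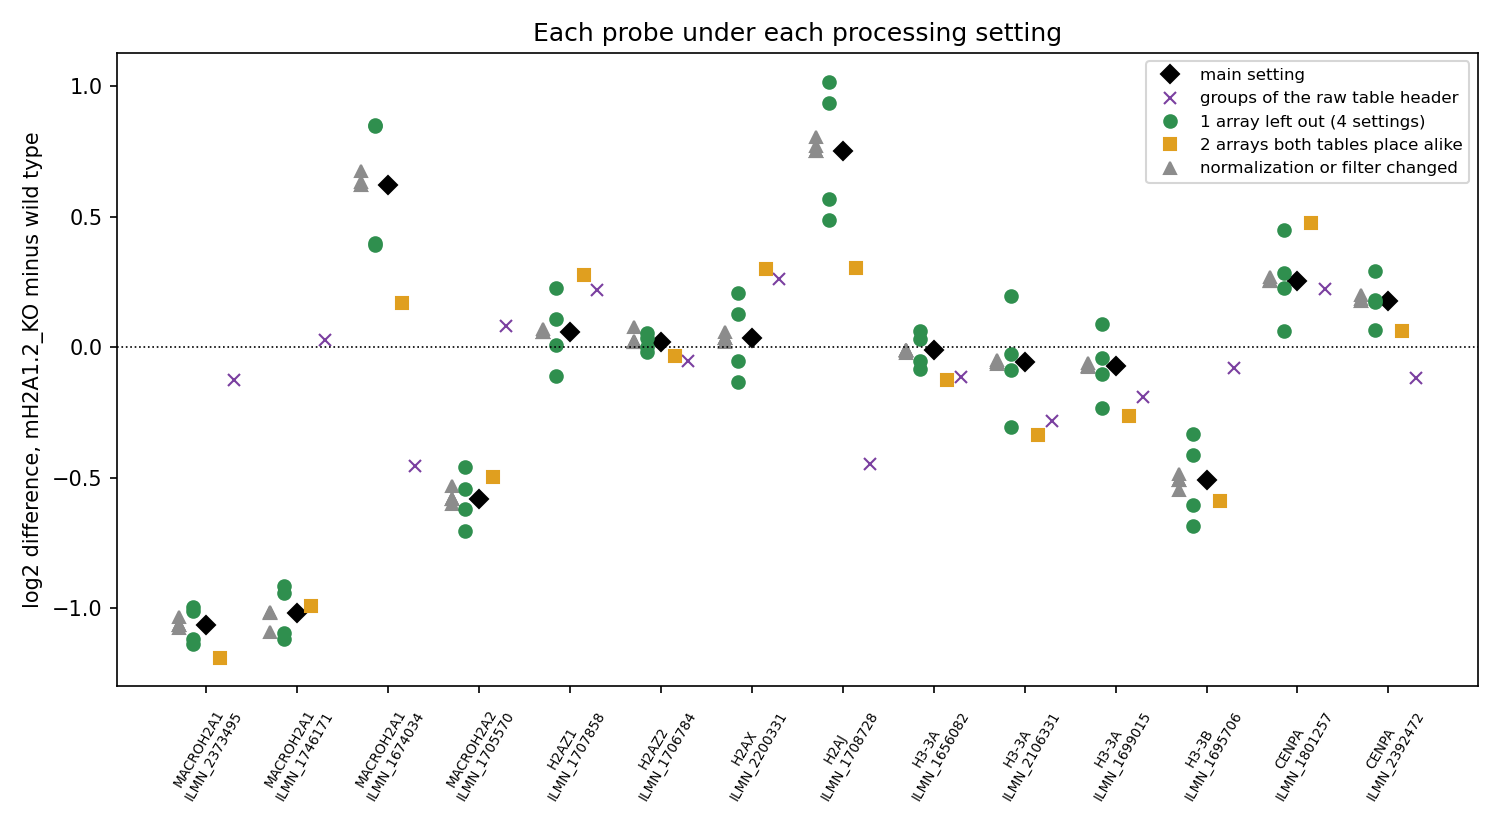
Log2 difference of each detected probe (mH2A1.2_KO minus wild type) in the setting reported (diamond), with 1 array left out (circles), with another normalization or filter (triangles), between the 2 arrays both tables place alike (square) and under the raw table's header (cross). For the brightest MACROH2A1 probe only the cross, at -0.12, lies away from the other marks, which span -1.19 to -0.99.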

How the data were processed

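For 47230 probes the authors deposited raw intensity on a linear scale, with a detection p-value for each array, and for 43893 of them normalized log2 values. How those deposited log2 values were normalized is not stated in the labels or headers; GenomeStudio is named by the submitters' processing notes. The log2 values were quantile normalized across the 4 arrays, and a probe was kept where its detection p-value was below 0.01 on 2 or more arrays. The test was two-sided, by lmFit and eBayes of limma 3.58.1 (R 4.3.3), with 2 residual and 4.26 prior degrees of freedom. Older symbols were updated through the gene ID, and sequences come from RefSeq (GRCh38.p14). Arrays give no read depth, and precision is limited by their number.

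The members, lists and tests were chosen with earlier results of these data known. Named were every member probe, up to 4 genes per list with the largest absolute difference plus any past the test, and the 5 genes most like MACROH2A1. PARP1 and SRCAP were added after their values were seen. A gene with several detected probes was represented in the lists by its brightest. Alternatives were other normalizations, filters, array names, a replicate block and leaving out each array.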

Additional observations from a re-analysis of the deposited data

How the results depend on the processing

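Differences of the 14 detected probes turned direction 15 times, all in settings that change the arrays or their names. Under the raw table's header these were MACROH2A1 probes ILMN_1746171 and ILMN_1674034 (0.027 and -0.45), MACROH2A2 (0.083), H2AZ2 (-0.052), H2AJ (-0.45) and the second CENPA probe (-0.12), and the offset between the brightest MACROH2A1 probe and ILMN_1674034 was 0.33 in place of -1.69. Between the 2 arrays both tables place alike, H2AZ2 turned to -0.034, and values moved to -1.19 for the brightest MACROH2A1 probe, 0.17 for ILMN_1674034, 0.31 for H2AJ, 0.30 for H2AX and -0.13 for H3-3A probe ILMN_1656082. With 1 array left out, ranges crossed 0 for H2AZ1 (-0.11 to 0.23), H2AZ2 (-0.017 to 0.054), H2AX (-0.13 to 0.21) and the H3-3A probes (-0.083 to 0.060, -0.31 to 0.20 and -0.23 to 0.090). In the same settings the brightest MACROH2A1 probe ran from -1.14 to -0.99, its offset to ILMN_1674034 from -1.86 to -1.52, the number of member probes called from 0 to 1, of list genes from 0 to 1 and of all probes from 0 to 211. Leaving out wild type replicate 2 gave the 211, and leaving out wild type replicate 1 gave 69. No detection filter left 5 of 43893 probes called and 0 members. The deposited values without the quantile step, neqc, detection on all 4 arrays and 1 probe per gene called 0 probes, with 1249, 1328, 1162 and 1065 at an unadjusted p under 0.05 against 1282 in the setting reported. That count was 2322 under the raw header, 2514 with no detection filter, 2905 with the replicate block, 1817 and 2525 without wild type replicate 1 and 2, and 474 and 603 without mH2A1.2_KO replicate 1 and 2. The cause of these changes was not tested.

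With a replicate block, pairing arrays by number, limma called 647 probes, 4 list genes (RRM2, MCM10, CCNB1 and YEATS4) and 4 member probes. These were the brightest MACROH2A1 probe (-1.07, adjusted p = 0.0022), ILMN_1746171 (-1.02, adjusted p = 0.00409), ILMN_1674034 (0.62, adjusted p = 0.0328) and H2AJ (0.75, adjusted p = 0.0152), all by limma. The labels do not say that numbers pair the arrays. Replicate 1 minus replicate 2 correlated at 0.567 between the groups over 16950 probes, which is a hint from the data and not from the design. The 2 arrays per group limit every interval given here.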
